A study of Mus musculus with 10 samples.

Results

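Notch receptors, the proteins that carry their signal and a set of their target genes were followed across early lymphoid progenitors of adult C57BL/6 mouse bone marrow. The set holds 10 genes, chosen by symbol, of 23152 genes measured: the receptor genes Notch1, Notch2 and Notch3, the nuclear mediator Rbpj, the receptor modifier Lfng, and the target or feedback genes Hes1, Hey1, Dtx1, Dtx4 and Nrarp. Total RNA of sorted cells was profiled on arrays in 4 groups. Ly6D+CLPs (2 arrays) and Ly6D-CLPs (2 arrays) are common lymphoid progenitors sorted as lineage-negative, cKit low, Sca-1 low, Flt3 high and CD127+, and split by the surface protein Ly6D. LMPP+s (3 arrays) and LMPP-s (3 arrays) are lymphoid-primed multipotent progenitors sorted as lineage-negative, cKit high, Sca-1 high and Flt3 high, with CD127 for LMPP+s and without it for LMPP-s. CD127, the product of Il7r, is a chain of the receptor for interleukin 7. CLPs thus differ from LMPPs in cKit and Sca-1 as well. The study set the CD127-divided LMPPs against CLPs. Nothing in the labels says whether the arrays of a group came from separate animals or sorts. The p-values therefore describe the spread among these arrays, which may be technical.

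Notch receptors are surface proteins that are cut by a membrane protease and then by the γ-secretase complex once a ligand on a neighbouring cell pulls on them. The freed intracellular part enters the nucleus, binds the DNA-binding protein Rbpj and, with Mastermind-like coactivators, turns on genes such as Hes1. In lymphoid development this pathway directs progenitors that reach the thymus to the T lineage and away from the B lineage.

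The Il7r signal followed the CD127 sort, at 9.62 to 9.66 log2 in Ly6D+CLPs, 9.28 to 9.34 in Ly6D-CLPs and 9.05 to 9.15 in LMPP+s, against 3.84 to 4.70 in LMPP-s. Kit was lower in CLPs (6.99 to 7.73 over their 4 arrays) than in LMPPs (8.27 to 8.74 over their 6 arrays). Ly6a, which encodes Sca-1, did not follow the gates, at 5.83 and 6.77 log2 in Ly6D+CLPs, 5.98 and 5.04 in Ly6D-CLPs, 6.41 to 7.58 in LMPP+s and 5.63 to 5.99 in LMPP-s, so that CLPs sorted as Sca-1 low overlapped LMPP-s sorted as Sca-1 high. Ly6d read 11.31 to 11.35 log2 in Ly6D+CLPs, 5.59 to 6.17 in Ly6D-CLPs, 8.53 to 8.81 in LMPP+s and 4.61 to 4.91 in LMPP-s, so LMPP+s, which were not sorted by Ly6D, lay above Ly6D-CLPs. Pairs of arrays of the same group correlated across genes at Pearson r of 0.972 to 0.986 and pairs from different groups at 0.955 to 0.981. Ly6D-CLPs array 1 correlated more closely with both Ly6D+CLPs arrays (0.979 and 0.977) than with Ly6D-CLPs array 2 (0.973). No run or scan date is given for the arrays in the labels. A batch between CLP and LMPP arrays was not tested and could not be told apart from cell type. This touches each difference between CLPs and LMPPs below. A gene value is the mean log2 signal of the probe sets that carry its symbol alone. The low-signal limit, 4.43 log2, is the 95th percentile of 1423 olfactory, vomeronasal and taste receptor genes. A call means an adjusted p under 0.05 in limma, where the Benjamini-Hochberg adjustment runs over the 23152 genes.

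Hes1 was the 1 member that passed the test for a difference between groups. It encodes a basic helix-loop-helix repressor, the best known direct target of Notch. The F test for any difference among the 4 groups called 1 of the 10 members, against 9.38% of all genes, and that member was Hes1 (limma adjusted p = 0.0006525). The other 9 had adjusted p from 0.1694 for Notch1 to 0.9112 for Notch3, and 3 members, Hes1, Notch1 and Notch2, had an unadjusted p under 0.05.

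Hes1 read 6.93 and 7.08 log2 in Ly6D+CLPs, 6.52 and 6.99 in Ly6D-CLPs, 7.16, 6.81 and 6.55 in LMPP+s, and 5.29, 5.11 and 5.24 in LMPP-s. All 7 arrays of the 3 CD127+ groups lay above all 3 LMPP-s arrays, and the ranges of the CD127+ groups overlapped one another. Group means were 7.01 ± 0.11 in Ly6D+CLPs (SD, n = 2), 6.84 ± 0.31 in LMPP+s (n = 3), 6.76 ± 0.34 in Ly6D-CLPs (n = 2) and 5.21 ± 0.09 in LMPP-s (n = 3).

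Relative to LMPP-s, Hes1 rose by 1.63 log2 in LMPP+s (SE 0.18, 3.10-fold, limma adjusted p = 0.001161). It rose by 1.54 log2 in Ly6D-CLPs (SE 0.20, 2.91-fold, adjusted p = 0.001704) and by 1.80 log2 in Ly6D+CLPs (SE 0.20, 3.47-fold, adjusted p = 0.0003661). These 3 comparisons share the LMPP-s arrays. In each of them Hes1 was the 1 member of 10 called, higher. Of all genes, limma called 1.47% for LMPP+s (0.881% higher, 0.592% lower), 7.1% for Ly6D-CLPs (2.93% higher, 4.17% lower) and 10.9% for Ly6D+CLPs (3.93% higher, 6.94% lower). The Hes1 call held in each of 18 other settings, with adjusted p up to 0.034 for LMPP+s, 0.01821 for Ly6D-CLPs and 0.007616 for Ly6D+CLPs. In bulk RNA of sorted cells, fewer cells with Hes1 transcript and less transcript per cell cannot be told apart.

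Among the 3 CD127+ groups no difference in Hes1 passed. Ly6D+CLPs minus Ly6D-CLPs was 0.25 log2 (95% interval -0.24 to 0.74), Ly6D+CLPs minus LMPP+s was 0.17 (-0.28 to 0.61) and Ly6D-CLPs minus LMPP+s was -0.09 (-0.53 to 0.36). With 2 or 3 arrays a group, these intervals leave room for differences of up to 0.74 log2. Over 18 other settings Ly6D-CLPs minus LMPP+s ran from -0.76 to 0.50 log2. Ly6D+CLPs minus LMPP+s ran from -0.08 to 0.83, and neither was called in any setting.

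**Figure D1:**
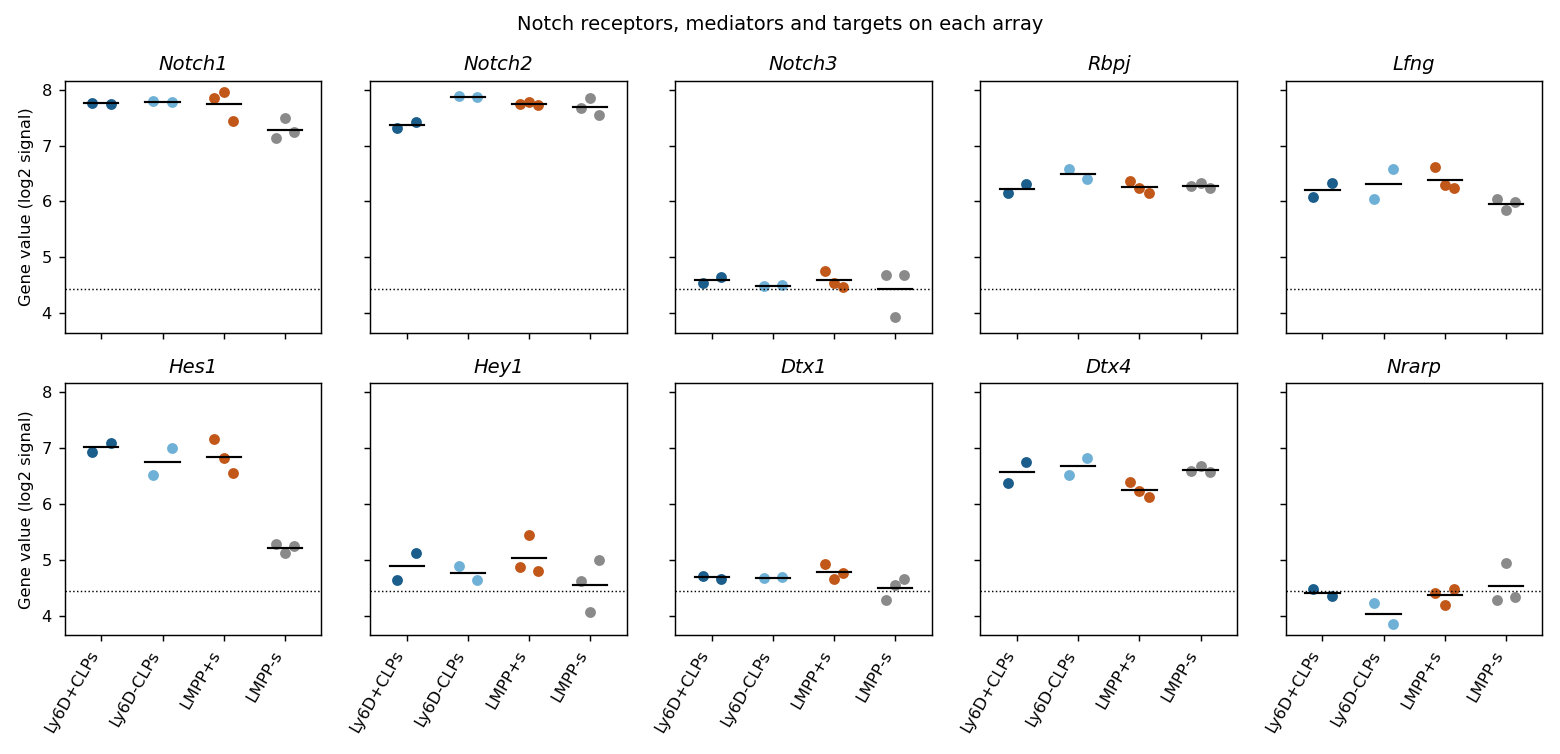
Gene value (log2 signal) of each of the 10 members on each array, with groups along the x axis, points for arrays, bars for group means and a dotted line at the low-signal limit of 4.43. Hes1 lies at 5.11 to 5.29 in the 3 LMPP-s arrays and at 6.52 to 7.16 in the other 7, while Notch3, Hey1, Dtx1 and Nrarp lie near the limit.

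Single probe sets carried the same low level in LMPP-s. Hes1 has 9 probe sets, of which 6 had a mean above the low-signal limit, and LMPP-s was the lowest group in all 6 of these and in 8 of the 9. The brightest averaged 10.5 log2 in Ly6D+CLPs, 9.78 in Ly6D-CLPs, 10.5 in LMPP+s and 8.38 in LMPP-s. Probe-set differences between LMPP+s and LMPP-s ran from -0.45 to 2.76 log2, with 8 of 9 above 0. For Ly6D-CLPs minus LMPP+s they ran from -1.25 to 0.67 log2, with 5 of 9 above 0. On the brightest probe set alone the rise in LMPP+s was 2.16 log2 and that in Ly6D-CLPs 1.40 log2, both called.

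Signals of other blood cells also differed between the groups. Of 11 mature granulocyte markers, 6 were called higher in LMPP+s than in LMPP-s and 0 lower. Cxcr2 and Mmp8 went the other way without a call. Cxcr2 read 4.87 to 5.39 log2 in LMPP+s against 5.41 to 5.94 in LMPP-s, and Mmp8 averaged 4.59 against 5.22. Mmp9 and Ly6g were under the low-signal limit in all groups. The mean of the list was 6.28 to 7.02 log2 in LMPP+s against 4.53 to 5.50 in LMPP-s. In CLPs that mean was 4.64 to 5.34 for Ly6D+CLPs and 4.89 to 4.92 for Ly6D-CLPs, within the LMPP-s range. Relative to LMPP-s, 1 of the 11 markers was called higher in Ly6D+CLPs (Ngp, 5.46 against 4.18 log2) and 1 lower (Mmp8, 3.67 against 5.22), and 0 were called in Ly6D-CLPs, where limma gave 2 an unadjusted p under 0.05. Of 12 erythroid and megakaryocyte markers, 3 were called higher in LMPP+s (list mean 5.22 to 5.82 log2, against 4.67 to 4.83 in LMPP-s), while the mean was 4.43 to 4.48 in Ly6D+CLPs and 4.55 to 4.63 in Ly6D-CLPs. Relative to LMPP-s, 2 of the 12 were called lower and 0 higher in Ly6D+CLPs. In Ly6D-CLPs 0 were called, and limma gave 3 an unadjusted p under 0.05. Itga2b and Vwf were under the limit in all groups.

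Some monocyte and macrophage markers moved opposite to Hes1. Of 12 such markers, 5 were called lower in Ly6D+CLPs, 5 in Ly6D-CLPs and 4 in LMPP+s than in LMPP-s, with none higher. Others of the list went with Hes1 without a call. C1qa read 5.03 and 5.14 log2 in Ly6D+CLPs and 5.09 and 4.99 in Ly6D-CLPs, against 4.83 to 4.97 in LMPP-s. In LMPP+s it ran from 4.55 to 5.39. Vcam1 was higher on each array of the CD127+ groups than on any LMPP-s array, and C1qb on each LMPP+s array. The list mean was 4.96 log2 on both Ly6D+CLPs arrays, 5.17 to 5.21 in Ly6D-CLPs and 5.27 to 5.31 in LMPP+s, against 5.79 to 6.15 in LMPP-s, and Emr1, C1qc, Vcam1 and Mrc1 were under the limit in all groups. Of 12 stroma and endothelium markers limma called 0 in every comparison, at most 3 at an unadjusted p under 0.05 in any one, and Cdh5, Kdr, Tek, Lepr, Col3a1 and Pdgfra were under the limit in all groups.

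Some lymphoid and dendritic cell markers moved with Hes1. Of 11 T and NK cell markers, 2 were called higher in Ly6D+CLPs (Cd28 and Cd5), 2 in Ly6D-CLPs (Cd28 and Cd5) and 1 in LMPP+s (Cd28) than in LMPP-s, and 1 was lower in Ly6D-CLPs (Nkg7). Cd28, a costimulatory receptor of T cells, averaged 7.36 log2 in Ly6D+CLPs, 7.06 in Ly6D-CLPs and 6.80 in LMPP+s, against 5.78 in LMPP-s. The list mean was 4.78 to 4.91 log2 in Ly6D+CLPs, 4.70 to 4.77 in Ly6D-CLPs and 4.72 to 4.87 in LMPP+s, against 4.53 to 4.61 in LMPP-s, and Cd3d, Cd3e, Cd3g, Cd4, Cd8a, Ncr1 and Klrb1c were under the limit in all groups.

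Of 10 B cell markers, 3 were called higher in Ly6D+CLPs (Cd79a, Pax5 and Ighm), 1 in Ly6D-CLPs (Ighm) and 1 in LMPP+s (Ighm) than in LMPP-s. Ighm, the μ heavy chain gene, averaged 7.79 log2 in Ly6D+CLPs, 7.71 in Ly6D-CLPs and 7.92 in LMPP+s, against 7.13 in LMPP-s. Cd79b went the other way without a call. It read 6.48 and 6.78 log2 in Ly6D+CLPs, 6.45 and 6.11 in Ly6D-CLPs and 6.54 to 6.86 in LMPP+s, against 6.77 to 6.89 in LMPP-s. The list mean was 4.995 to 5.10 log2 in Ly6D+CLPs, 4.59 to 4.71 in Ly6D-CLPs and 4.64 to 4.72 in LMPP+s, against 4.44 to 4.51 in LMPP-s, and Ms4a1, Cr2, Fcer2a and Igj were under the limit in all groups.

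Of 10 dendritic cell markers, 2 were called higher and 2 lower in each CLP group than in LMPP-s, and 1 higher and 1 lower in LMPP+s. Siglech, a marker of plasmacytoid dendritic cells, averaged 8.92 log2 in Ly6D+CLPs, 7.71 in Ly6D-CLPs and 6.49 in LMPP+s, against 5.59 in LMPP-s. Bst2, of the same list, went the other way in CLPs. It read 8.43 and 8.67 log2 in Ly6D+CLPs, 8.24 and 8.38 in Ly6D-CLPs and 8.90 to 9.22 in LMPP+s, against 9.01 to 9.23 in LMPP-s. Clec9a averaged 4.72 log2 in Ly6D+CLPs, 5.17 in Ly6D-CLPs and 4.17 in LMPP+s, against 6.34 in LMPP-s. The list mean was 5.30 to 5.40 log2 in Ly6D+CLPs, 5.27 to 5.29 in Ly6D-CLPs and 4.98 to 5.07 in LMPP+s, against 4.86 to 5.13 in LMPP-s. The part of these other cell types in the Hes1 difference was not tested.

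**Figure D2:**
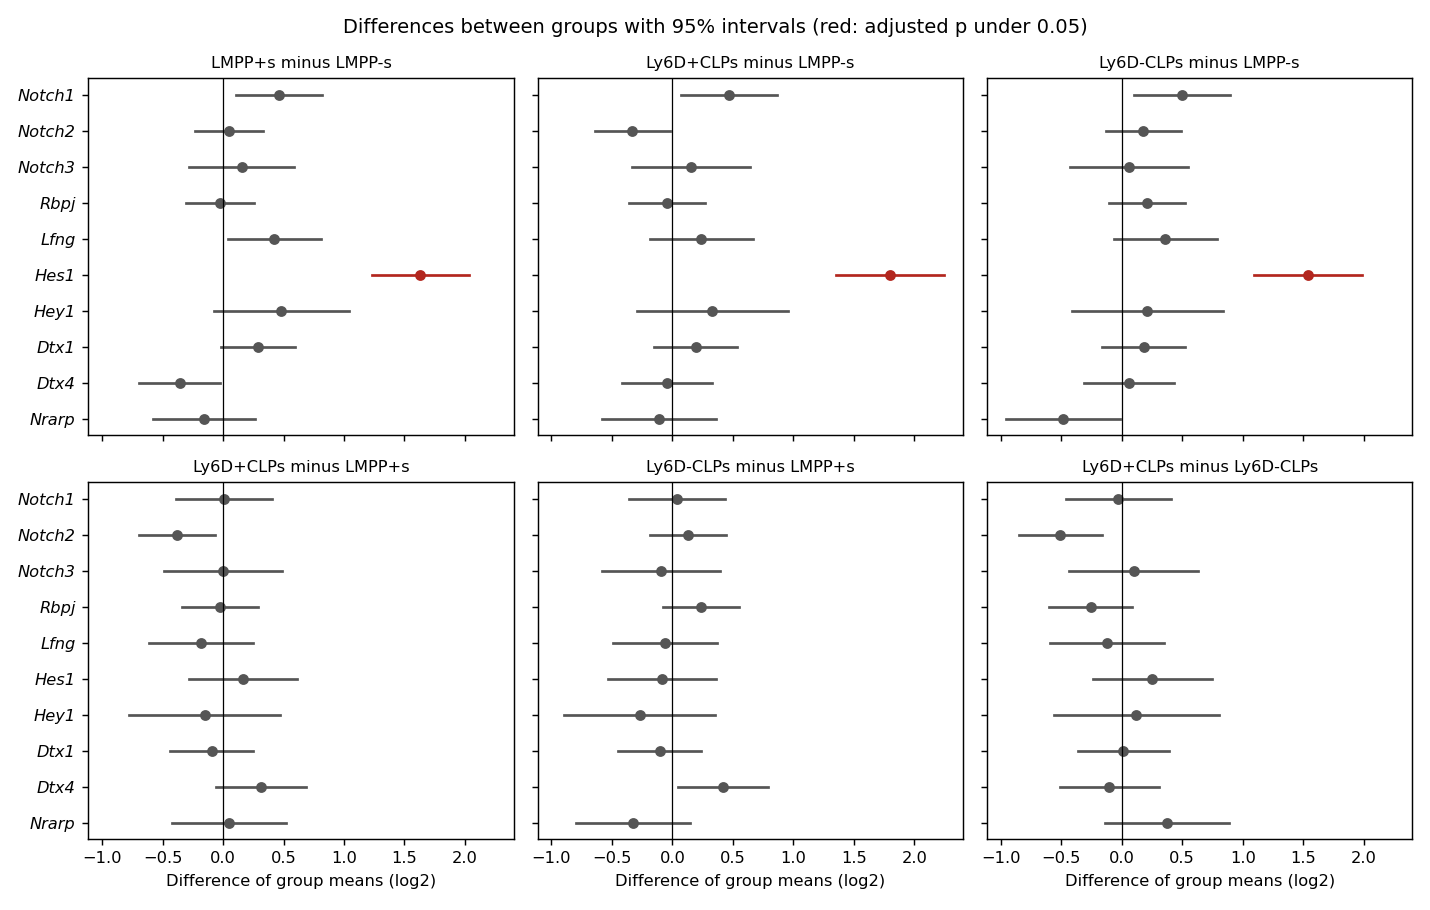
Difference of group means (log2, x axis) for each member in the 6 comparisons, as points with 95% intervals from limma, in red where the adjusted p was under 0.05. The Hes1 intervals against LMPP-s start at 1.10 or above, and no interval of another member reaches past 1.04.

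Notch1 is the receptor that T lineage entry depends on in mice. It read 7.76 and 7.75 log2 in Ly6D+CLPs, 7.80 and 7.77 in Ly6D-CLPs, 7.86, 7.95 and 7.44 in LMPP+s, and 7.13, 7.49 and 7.24 in LMPP-s. Both CLP groups lay above all LMPP-s arrays, whereas 1 LMPP+s array (7.44) lay below the highest LMPP-s array (7.49).

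Relative to LMPP-s the Notch1 difference was 0.47 log2 in Ly6D+CLPs (95% interval 0.07 to 0.86), 0.50 in Ly6D-CLPs (0.10 to 0.89) and 0.46 in LMPP+s (0.11 to 0.82). None passed after adjustment (limma adjusted p = 0.1301, 0.1297 and 0.2817, unadjusted p = 0.02452, 0.01821 and 0.01518). Of its 40 probe sets, 31, 31 and 34 were higher than in LMPP-s in these comparisons. With limma's trend and robust settings both CLP differences passed (adjusted p = 0.04397 for Ly6D+CLPs and 0.04034 for Ly6D-CLPs).

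Notch2, a receptor known for its role in marginal zone B cells, had its lowest values in Ly6D+CLPs. It read 7.32 and 7.42 log2 in Ly6D+CLPs, 7.89 and 7.86 in Ly6D-CLPs, 7.75, 7.78 and 7.72 in LMPP+s, and 7.68, 7.86 and 7.56 in LMPP-s. The Ly6D+CLPs arrays lay below all 8 others.

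Between the CLP groups, Ly6D+CLPs minus Ly6D-CLPs, Notch2 differed by -0.51 log2 (95% interval -0.85 to -0.17), with an unadjusted p of 0.007378 that did not pass adjustment (limma adjusted p = 0.3493). Of its 27 probe sets, 21 were lower in Ly6D+CLPs than in Ly6D-CLPs, 20 lower than in LMPP+s and 24 lower than in LMPP-s. The brightest probe set alone differed by 0.00022 log2 between the CLP groups. In that comparison limma called 0 of the 10 members, 1 at an unadjusted p under 0.05, against 0.0993% of all genes called (0.0389% higher, 0.0605% lower).

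Notch3, a receptor known mainly from vascular smooth muscle and thymocytes, had gene values of 3.94 to 4.76 log2 over the 10 arrays, near the low-signal limit. Of its 25 probe sets 12 averaged above the limit, and the brightest averaged 8.27 log2 in Ly6D+CLPs, 8.19 in Ly6D-CLPs, 8.58 in LMPP+s and 8.30 in LMPP-s. No group mean was above 4.59 or below 4.44, and the lowest array belonged to LMPP-s.

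**Figure D3:**
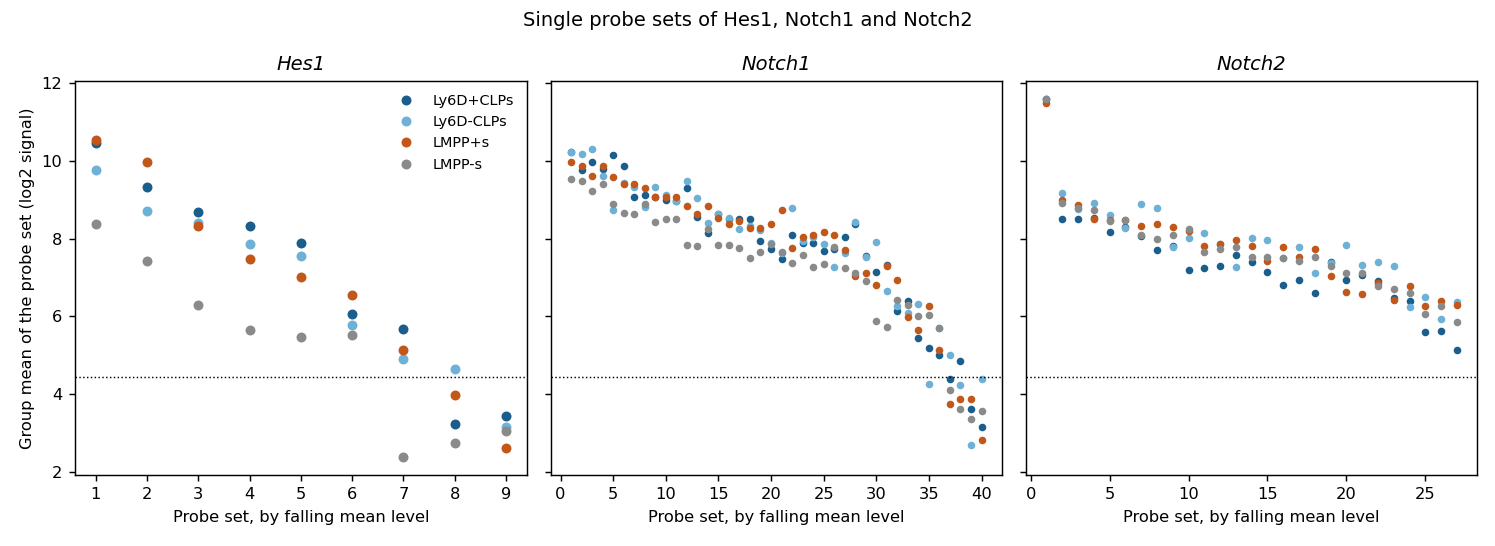
Group means (log2 signal, y axis) of the single probe sets of Hes1, Notch1 and Notch2, ordered along the x axis by falling mean level, with 1 colour for each group and a dotted line at the low-signal limit. LMPP-s is lowest in all 6 Hes1 probe sets above the limit, and Ly6D+CLPs are lower than LMPP-s in 24 of 27 Notch2 probe sets.

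Rbpj and Lfng act in the receiving cell, Rbpj as the DNA-binding partner of the cut receptor and Lfng, lunatic fringe, as a sugar transferase of the Golgi that changes which ligands a receptor answers to. Rbpj read 6.14 and 6.32 log2 in Ly6D+CLPs, 6.58 and 6.40 in Ly6D-CLPs, 6.37, 6.24 and 6.15 in LMPP+s, and 6.27, 6.32 and 6.24 in LMPP-s. Its largest difference was that of Ly6D+CLPs minus Ly6D-CLPs, -0.26 log2 (95% interval -0.60 to 0.09, limma adjusted p = 0.6701). The gene value rests on 4 probe sets.

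Lfng read 6.07 and 6.32 log2 in Ly6D+CLPs, 6.05 and 6.59 in Ly6D-CLPs, 6.62, 6.29 and 6.23 in LMPP+s, and 6.05, 5.84 and 5.98 in LMPP-s. The 3 LMPP+s arrays lay above the 3 LMPP-s arrays, and all 10 probe sets were higher in LMPP+s. The difference of 0.42 log2 (95% interval 0.04 to 0.81) did not pass (limma adjusted p = 0.3875, unadjusted p = 0.03358).

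The promoters of Lfng and Rbpj are shown because they are the members whose promoter window, 250 bases before to 50 after the start, holds the Rbpj core motif TGGGAA on either strand. The windows are RefSeq's on GRCm38.p6, both on the + strand, at chr5:140607091-140607390 for Lfng and chr5:53590096-53590395 for Rbpj, and capitals mark the motif or its reverse complement.
Lfng: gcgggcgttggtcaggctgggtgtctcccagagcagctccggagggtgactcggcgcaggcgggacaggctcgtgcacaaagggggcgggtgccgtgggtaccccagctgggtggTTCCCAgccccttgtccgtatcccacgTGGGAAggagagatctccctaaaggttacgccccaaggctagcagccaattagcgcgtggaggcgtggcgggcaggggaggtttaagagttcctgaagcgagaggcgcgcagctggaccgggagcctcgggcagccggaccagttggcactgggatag
Rbpj: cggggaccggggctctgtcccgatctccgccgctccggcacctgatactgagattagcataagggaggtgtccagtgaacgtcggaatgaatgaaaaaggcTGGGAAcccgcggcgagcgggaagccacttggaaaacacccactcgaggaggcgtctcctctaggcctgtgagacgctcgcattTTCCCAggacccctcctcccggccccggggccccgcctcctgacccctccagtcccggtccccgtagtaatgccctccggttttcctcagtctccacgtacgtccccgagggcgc
The Lfng matches begin 135 and 108 bases before the start, on opposite strands, and those of Rbpj 149 and 65 bases before it. Of the 7 members with a window in the table (Notch1, Notch2, Notch3, Dtx1, Nrarp, Rbpj and Lfng), 2 held the motif (28.6%), against 28.3% of 27025 genes, and by windows 3 of 8 (37.5%), against 25.6% of 32851. The third of these windows is a second one of Rbpj. Hes1, Hey1 and Dtx4 had no window, so their promoters were not searched for the motif. A match is a string of letters and does not show binding.

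Dtx4 and Dtx1 encode Deltex proteins, ubiquitin ligases that bind the receptor's intracellular part; Dtx1 is itself a Notch target in T cell precursors. Dtx4 read 6.38 and 6.76 log2 in Ly6D+CLPs, 6.51 and 6.83 in Ly6D-CLPs, 6.39, 6.23 and 6.12 in LMPP+s, and 6.58, 6.67 and 6.57 in LMPP-s. LMPP+s had the lowest mean, and their arrays lay below those of LMPP-s and of Ly6D-CLPs without overlap.

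LMPP+s minus LMPP-s was -0.36 log2 for Dtx4 (95% interval -0.69 to -0.03, limma adjusted p = 0.4037, unadjusted p = 0.03721), with 10 of 11 probe sets lower. Ly6D-CLPs minus LMPP+s was 0.42 log2 (0.05 to 0.79, adjusted p = 0.2193). The brightest Dtx4 probe set behaved differently from the mean of all 11. It averaged 9.65 log2 in Ly6D+CLPs, 9.04 in Ly6D-CLPs, 7.79 in LMPP+s and 8.23 in LMPP-s, and taken alone it was called higher in Ly6D+CLPs than in LMPP+s (1.86 log2, adjusted p = 0.01571) and than in LMPP-s (1.42 log2, adjusted p = 0.01993), where the mean of all probe sets differed by -0.04 log2.

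Dtx1 lay between 4.29 and 4.92 log2 on all arrays, and 7 of its 15 probe sets averaged above the limit. The 3 LMPP+s arrays (4.66 to 4.92) were above the 3 LMPP-s arrays (4.29 to 4.65), a difference of 0.29 log2 (95% interval -0.02 to 0.59, limma adjusted p = 0.4908). Its brightest probe set averaged 8.65 log2 in Ly6D+CLPs, 8.40 in Ly6D-CLPs, 7.92 in LMPP+s and 6.82 in LMPP-s, and alone it was called for Ly6D+CLPs against LMPP-s (1.83 log2, adjusted p = 0.03176).

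Hey1, a repressor related to Hes1, lay at 4.06 to 5.44 log2. All 7 of its probe sets were higher in LMPP+s than in LMPP-s, the gene difference was 0.48 log2 (95% interval -0.08 to 1.04, limma adjusted p = 0.5361) and the arrays of those groups overlapped. Of the Hey1 probe sets 4 averaged above the limit, and the brightest averaged 6.72 log2 in Ly6D+CLPs, 6.67 in Ly6D-CLPs, 6.06 in LMPP+s and 5.61 in LMPP-s. Nrarp, a feedback inhibitor that binds the Notch and Rbpj complex, lay at 3.85 to 4.94 log2 on 3 probe sets, with a group mean above the low-signal limit in LMPP-s alone (4.52). Ly6D-CLPs minus LMPP-s was -0.48 log2 for Nrarp (95% interval -0.96 to -0.01, limma adjusted p = 0.2116). Of the Nrarp probe sets 2 averaged above the limit.

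Against LMPP+s, limma called 0 of the 10 members in Ly6D+CLPs, 1 at an unadjusted p under 0.05 (Notch2), while 4.03% of all genes were called (1.28% higher, 2.75% lower). In Ly6D-CLPs it called 0, 1 at an unadjusted p under 0.05 (Dtx4), while 2.06% of all genes were called (0.635% higher, 1.42% lower). The median member difference was 0.22 log2 for LMPP+s against LMPP-s, 0.17 for Ly6D+CLPs and 0.19 for Ly6D-CLPs against LMPP-s, where the medians over all genes were -0.01, 0.02 and -0.003. In the other 3 comparisons the member medians lay between -0.07 and -0.01.

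Genes whose pattern over the 10 arrays was most like that of Hes1 were Slc30a4, a zinc transporter gene (Pearson r = 0.980), Emp1, which encodes an epithelial membrane protein (r = 0.978), and Uaca, which encodes a coiled-coil protein (r = 0.973). They ranked highest among 1703 genes with at least 3 probe sets, a group mean above the low-signal limit and a called F test, and points share arrays and group structure. Emp1 averaged 7.74 log2 in Ly6D+CLPs, 7.51 in Ly6D-CLPs, 7.57 in LMPP+s and 6.39 in LMPP-s. Slc30a4 averaged 6.93, 6.77, 6.85 and 6.08 in the same order of groups. None of their promoter windows held TGGGAA. Among the members, Hes1 correlated at 0.838 with Notch1 and 0.776 with Lfng over the 10 arrays, a description over arrays that share the same 4 groups.

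The remaining pathway genes were read from 8 lists holding 91 genes, of which 88 were measured and 15, or 17.05%, were called by the F test, beside 9.38% of all genes. Of these calls, 6 came from the list of early T lineage genes. They include Uaca, which is also among the genes most like Hes1 above. The lists were chosen with earlier results of these data known, so these shares do not test whether the pathway is enriched. Of 9 ligand genes, Jag2 was called and 7 were under the low-signal limit in every group. Jag2, a ligand of the Jagged class, read 5.84 and 5.85 log2 in Ly6D+CLPs, 5.32 and 5.50 in Ly6D-CLPs, 5.25, 5.07 and 5.41 in LMPP+s, and 4.77, 4.68 and 4.23 in LMPP-s. It was higher in Ly6D+CLPs than in LMPP-s by 1.28 log2 (SE 0.19, limma adjusted p = 0.001696), with no overlap of arrays. The call was lost with the median of its probe sets (adjusted p = 0.07126) and on the brightest one, where the difference was 0.10 log2 (adjusted p = 0.8622).

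Of 9 measured cleavage enzyme genes, 3 fell in Ly6D+CLPs relative to LMPP-s and none rose, beside 6.94% of all genes lower. Psenen, a subunit of γ-secretase, read 9.05 and 8.999 log2 in Ly6D+CLPs, 8.54 and 8.60 in Ly6D-CLPs, 9.73, 9.73 and 9.62 in LMPP+s, and 9.83, 9.83 and 9.84 in LMPP-s, with the CLP groups below both LMPP groups. Relative to LMPP-s, Psenen fell by 0.81 log2 in Ly6D+CLPs (limma adjusted p = 0.002944). It fell by 1.27 log2 in Ly6D-CLPs (adjusted p = 0.0005118). On the brightest Psenen probe set these had adjusted p of 0.1384 and 0.05293.

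Adam10, the main protease of the first cut, fell by 0.78 log2 in Ly6D+CLPs relative to LMPP-s (limma adjusted p = 0.006888), and Adam17 fell by 0.75 (adjusted p = 0.01034). Both calls were lost without Ly6D+CLPs array 2 (adjusted p = 0.08099 for Adam10 and 0.1122 for Adam17) and with the median of the probe sets (0.1052 and 0.3178). Of 7 genes for Notch4 and receptor sugar transferases, Poglut1, which adds glucose to the receptor's repeats, was called. It fell by 0.94 log2 in Ly6D+CLPs relative to LMPP-s (adjusted p = 0.002229). In Ly6D-CLPs it fell by 0.85 log2 (adjusted p = 0.006146). Neither passed on the brightest Poglut1 probe set (adjusted p = 0.1196 for Ly6D+CLPs and 0.1119 for Ly6D-CLPs).

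Of 8 coactivator genes, Maml3 and Crebbp were called. Maml3, a Mastermind-like coactivator, read 8.49 and 8.42 log2 in Ly6D+CLPs, 8.39 and 8.61 in Ly6D-CLPs, 8.01, 8.05 and 8.09 in LMPP+s, and 7.13, 7.55 and 7.56 in LMPP-s. Relative to LMPP-s, Maml3 rose by 1.04 log2 in Ly6D+CLPs (limma adjusted p = 0.002876). In Ly6D-CLPs it rose by 1.09 log2 (adjusted p = 0.003996), and both calls held in all 18 other settings. In LMPP+s Maml3 differed from LMPP-s by 0.64 log2 and did not pass (adjusted p = 0.0742). Crebbp, a histone acetyltransferase, rose by 0.59 log2 in Ly6D+CLPs (adjusted p = 0.01897), a call lost without LMPP-s array 1 or either Ly6D+CLPs array (adjusted p up to 0.1541), on the brightest probe set (0.07591), with the compared arrays alone (0.05184) and with a replicate block (0.0525).

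Of 14 corepressor genes, Kdm5a, a histone demethylase, was called, and it rose by 0.82 log2 in Ly6D+CLPs relative to LMPP-s (limma adjusted p = 0.004315, and 0.05657 without Ly6D+CLPs array 1). Of 17 trafficking and turnover genes, Neurl2 was called, and it fell by 0.83 log2 in Ly6D+CLPs relative to LMPP-s (adjusted p = 0.01301, lost without LMPP-s array 1 or Ly6D+CLPs array 1, with adjusted p up to 0.1404, and with the median of the probe sets, at 0.3023). Of 8 other Hes and Hey genes the F test called 0, also 0 at an unadjusted p under 0.05, and 3 of the 8 were above the low-signal limit in at least 1 group. Hes6, with the smallest p among them, averaged 5.52 log2 in Ly6D+CLPs, 5.59 in Ly6D-CLPs, 5.98 in LMPP+s and 6.10 in LMPP-s.

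**Figure D4:**
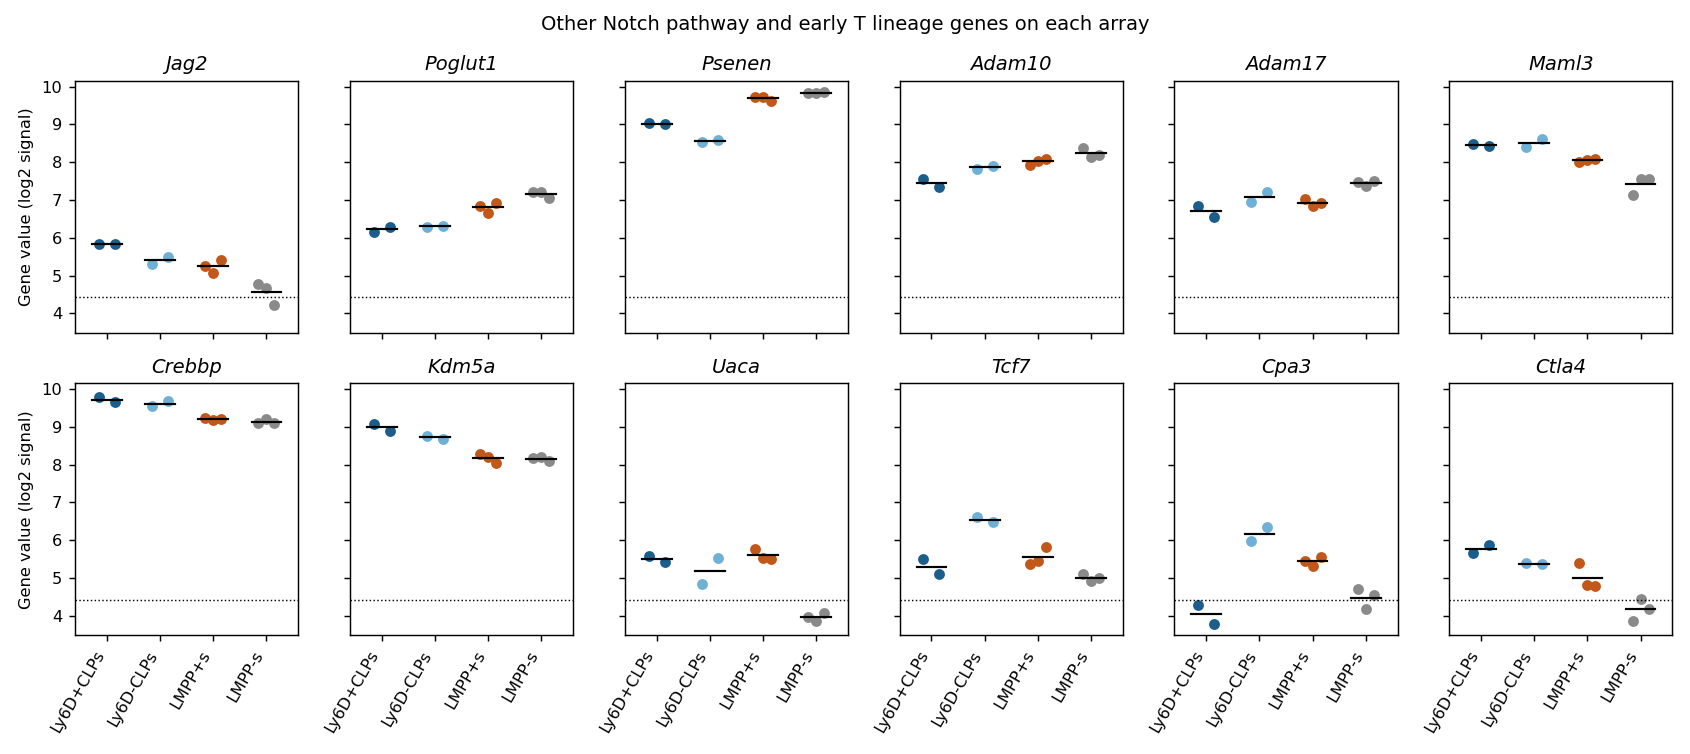
Gene value (log2 signal) on each array of 8 other Notch pathway genes and 4 genes of the early T lineage list called by the F test, with groups along the x axis, points for arrays, bars for group means and a dotted line at the low-signal limit. Psenen and Poglut1 are lower in both CLP groups than in LMPP-s, Maml3 is higher, and Tcf7 and Cpa3 are highest in Ly6D-CLPs.

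Genes of the early T lineage list, several of them known Notch targets in thymocytes, followed more than 1 pattern. Of 16 measured, 6 were called by the F test. Relative to LMPP-s, 3 rose and 0 fell in Ly6D+CLPs, 4 rose and 1 fell in Ly6D-CLPs, and 2 rose and 1 fell in LMPP+s. The F test did not call Gata3, Ptcra, Bcl11b, Myc, Ccnd3 and Hhex. Also uncalled were Il2ra, Cd3d, Cd3e and Cd3g, under the low-signal limit in all groups. Cd7 and Deptor were called by the F test. Deptor was highest in LMPP-s, at 5.29 to 5.51 log2. It read 4.34 to 4.68 in LMPP+s, 4.64 and 4.52 in Ly6D-CLPs, and 4.73 and 5.01 in Ly6D+CLPs. Tcf7, a transcription factor of T cell specification, read 5.50 and 5.10 log2 in Ly6D+CLPs, 6.61 and 6.48 in Ly6D-CLPs, 5.38, 5.44 and 5.82 in LMPP+s, and from 4.91 to 5.12 in LMPP-s. It was highest in Ly6D-CLPs, by 1.54 log2 over LMPP-s (limma adjusted p = 0.001034), a difference that was 0.15 log2 and not called on its brightest probe set. Uaca read 5.58 and 5.43 log2 in Ly6D+CLPs, 4.85 and 5.53 in Ly6D-CLPs, 5.77, 5.53 and 5.50 in LMPP+s, and 3.98, 3.85 and 4.07 in LMPP-s. Uaca rose by 1.63 log2 in LMPP+s relative to LMPP-s, whose mean lies under the low-signal limit (adjusted p = 0.001058).

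Cpa3, a mast cell protease gene that early thymic progenitors of mice also express, averaged 4.04 log2 in Ly6D+CLPs, 6.16 in Ly6D-CLPs, 5.44 in LMPP+s and 4.47 in LMPP-s. It rose by 1.69 log2 in Ly6D-CLPs relative to LMPP-s (limma adjusted p = 0.001293, and not called on its brightest probe set). Ctla4 rose by 1.59 log2 in Ly6D+CLPs relative to LMPP-s (adjusted p = 0.001231), with a mean of 5.76 log2 in Ly6D+CLPs and 4.17 in LMPP-s, the second of these under the low-signal limit. Ctla4 encodes an inhibitory receptor of T cells.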

How the data were processed

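The table the authors deposited gives a value for 269751 probe sets on 10 arrays. The authors made these log2 signals with Affymetrix Power Tools, per the submitters' processing notes. They were taken as log2 because they run between 0.20433 and 14.7901, with log base, normalization and genome build not given in the sources used here. Array quartiles differed by at most 0.111 log2, so no further normalization was applied. Probe sets with 1 symbol (233753) were averaged into 23152 genes; 5106 with several symbols and 30892 with none were left out. All 10 member symbols are current in RefSeq's GRCm38.p6 gene table.

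Differences came from limma 3.58.1 in R 4.3.3, fitted to all 10 arrays with a mean per group. Intervals are unadjusted 95% intervals of that fit. The number of arrays limits the precision. The steps were tested on simulated data. Pathway genes picked for closer description are up to 4 per list past the F test, or else the one with the smallest p. Cd7 and Deptor, outside that pick, were not followed in the other settings. Members, lists and rules were chosen with earlier results of these data known. Each array was left out in turn. Other alternatives were a replicate block, the compared arrays alone, limma's trend and robust options, a dim-gene filter, each gene's brightest probe set or the median over its probe sets, and quantile or median scaling. Figures used Python 3.11.15 and matplotlib 3.10.9.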

Additional observations from a re-analysis of the deposited data

How the results depend on the processing

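Hes1 kept its direction and its call against LMPP-s in all 18 other settings, with log2 differences of 1.47 to 2.16 in LMPP+s, 1.31 to 2.03 in Ly6D-CLPs and 1.72 to 2.36 in Ly6D+CLPs. On the brightest probe set of each gene, 2 members passed the F test (Hes1 and Dtx4), 3 passed for Ly6D+CLPs against LMPP-s (Hes1, Dtx1 and Dtx4) and 1 for Ly6D+CLPs against LMPP+s (Dtx4). There Dtx4 turned to 1.42 for Ly6D+CLPs against LMPP-s, Jag2 to -0.24 for Ly6D-CLPs against LMPP-s, and Cpa3 to -0.0700 for LMPP+s against LMPP-s and 0.26 for Ly6D+CLPs against LMPP+s. With trend and robust settings 3 members passed the F test (Notch1, Notch2 and Hes1) and 2 (Notch1 and Hes1) passed for each CLP group against LMPP-s. The causes were not tested. Without each array in turn the counts of members called ran from 1 to 1 where the full count is 1 and from 0 to 0 where it is 0. Of 35 calls of other named genes, 17 held without each array in turn, 5 in every setting and 32 kept their direction throughout; these alternatives were added after seeing the data.

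The count of all genes called moved more. For LMPP+s against LMPP-s it was 341, with 88 on the brightest probe set, 581 with trend and robust settings, and 165 to 340 with an array left out. For Ly6D+CLPs against Ly6D-CLPs it was 23, with 1 to 78 in other settings and 6 to 27 with an array left out. For Ly6D-CLPs it was 476 against LMPP+s (22 to 1398, and 76 to 438) and 1643 against LMPP-s (664 to 2551, and 808 to 1448). For Ly6D+CLPs it was 933 against LMPP+s (429 to 1954, and 194 to 1016) and 2517 against LMPP-s (1364 to 3451, and 1001 to 2652). The F test called 2171 (1042 to 3516, and 1199 to 2028).

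Deviations of same-numbered arrays from their group means correlated at r of -0.0431 to 0.127 across comparisons. With 2 or 3 arrays a group these values cannot decide whether the numbers pair the arrays, and the labels do not say. With a replicate block the counts of members called were again 1 against LMPP-s in each comparison and 0 elsewhere, and Hes1 had adjusted p = 0.005267 in LMPP+s, 0.01077 in Ly6D-CLPs and 0.003488 in Ly6D+CLPs. The gene values of Notch3, Hey1, Dtx1 and Nrarp (group means 4.04 to 5.03 log2, near the low-signal limit of 4.43) average bright with dim probe sets, since 12 of 25, 4 of 7, 7 of 15 and 2 of 3 of their probe sets averaged above that limit.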
